A study of Mus musculus with 6 samples.

Results

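The lysyl oxidase family of the mouse has 5 genes, *Lox*, *Loxl1*, *Loxl2*, *Loxl3* and *Loxl4*. They were taken from the deposited read counts of gonadal white adipose tissue (gWAT) as the rows whose NCBI gene identifier carries one of these symbols, and all 5 were present among 19790 genes. gWAT is the visceral fat pad that lies beside the reproductive organs. It was sampled from wild-type C57BL/6 mice, male by the study's methods, of which 3 had spent 8 weeks on a normal chow diet (NCD) and 3 on a high-fat diet (HFD). The labels put the start of the diet at 6 weeks of age, and the study's methods give a later start. Each library is 1 mouse by its label, no allele or agent other than the diet is named, and nothing in the labels states whether cages or days were shared between mice.

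Lysyl oxidases are secreted, copper-dependent amine oxidases that convert lysine and hydroxylysine side chains of collagen and elastin into reactive aldehydes. The aldehydes then condense into the covalent cross-links that give collagen fibrils their tensile strength and elastic fibres their recoil. *Lox* and *Loxl1* encode proenzymes whose propeptide is cut off by procollagen C-proteinases, whereas the products of *Loxl2*, *Loxl3* and *Loxl4* carry scavenger receptor cysteine-rich domains in front of the catalytic domain. In fat, collagen surrounds each adipocyte and is remodelled as the cell enlarges, and *Lox* has been studied in obese fat as a target of hypoxia signalling.

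The catalytic domain that defines the family holds a run of histidines that binds copper, and its coding sequence is shown because it is what the members share and also what separates them into close and distant pairs. The stretch of 33 coding bases was found by translating each coding sequence and searching for tryptophan, any residue, tryptophan, histidine, any residue, cysteine, histidine, any residue, histidine, tyrosine and histidine. The sequences were read from GENCODE vM21 transcripts on GRCm38, 5′ to 3′ on the coding strand, and capitals mark the 4 histidine codons. In each gene the stretch spans the junction of 2 neighbouring coding exons, so that the coordinates include an intron.
Loxl1, chr9:58293720-58294381, minus strand, exons 3 and 4: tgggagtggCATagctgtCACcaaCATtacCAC
Loxl2, chr14:69682316-69689037, plus strand, exons 10 and 11: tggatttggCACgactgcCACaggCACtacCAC
Loxl3, chr6:83049995-83050125, plus strand, exons 10 and 11: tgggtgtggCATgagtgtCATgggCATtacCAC
Loxl4, chr19:42598807-42599899, minus strand, exons 11 and 12: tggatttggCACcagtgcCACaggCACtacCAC
The closest pair shown is *Loxl2* and *Loxl4*, which differ at 2 of the 33 bases, while *Loxl1* differs from *Loxl2* at 11 and *Loxl3* differs from each of *Loxl1*, *Loxl2* and *Loxl4* at 8. The stretch of *Lox* differs from that of *Loxl1* at 1 base. Coding length was 1233 bases for *Lox* and 1821 for *Loxl1* in 7 exons each, 2328 for *Loxl2* and 2262 for *Loxl3* in 14 exons each, and 2274 for *Loxl4* in 15.

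The libraries held between 49575113 and 66360046 counts. Secretory genes of the seminal vesicle, a gland that lies against the fat pad, took up 58.6% of NCD replicate 1 (11 genes), compared with 11.2% of NCD replicate 2 and 2.30% of NCD replicate 3. The 10 adipocyte markers were read in all 6 mice, but their summed level in NCD replicate 1, 5730 CPM, was below the 12673 to 29448 CPM of the other 5 mice. The results are therefore also given without NCD replicate 1. CPM are counts divided by a common library size, which was scaled by the TMM method to allow for differences in composition, with a factor of 0.496 for NCD replicate 1 and of 1.02 to 1.27 for the other mice. Diets were compared with the quasi-likelihood F test of edgeR, adjusted by the Benjamini-Hochberg method over 15241 genes, where an adjusted p under 0.05 counted as a call.

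All 5 genes were read more often in each of the 3 HFD mice than in any of the 3 NCD mice, and 3 of them, *Lox*, *Loxl2* and *Loxl3*, rose past the threshold. Of all genes tested, 5.58% were called higher on HFD, and 20.5% had every HFD mouse above every NCD mouse. Summed over the family, NCD replicates 1, 2 and 3 held 60.9, 134.0 and 142.2 CPM and HFD replicates 1, 2 and 3 held 431.8, 482.7 and 603.9 CPM. NCD replicate 1 was the lowest mouse for *Lox*, *Loxl1*, *Loxl2* and *Loxl4*. Without it the same 3 genes were called, beside 10.7% of genes called higher.

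**Figure D1:**
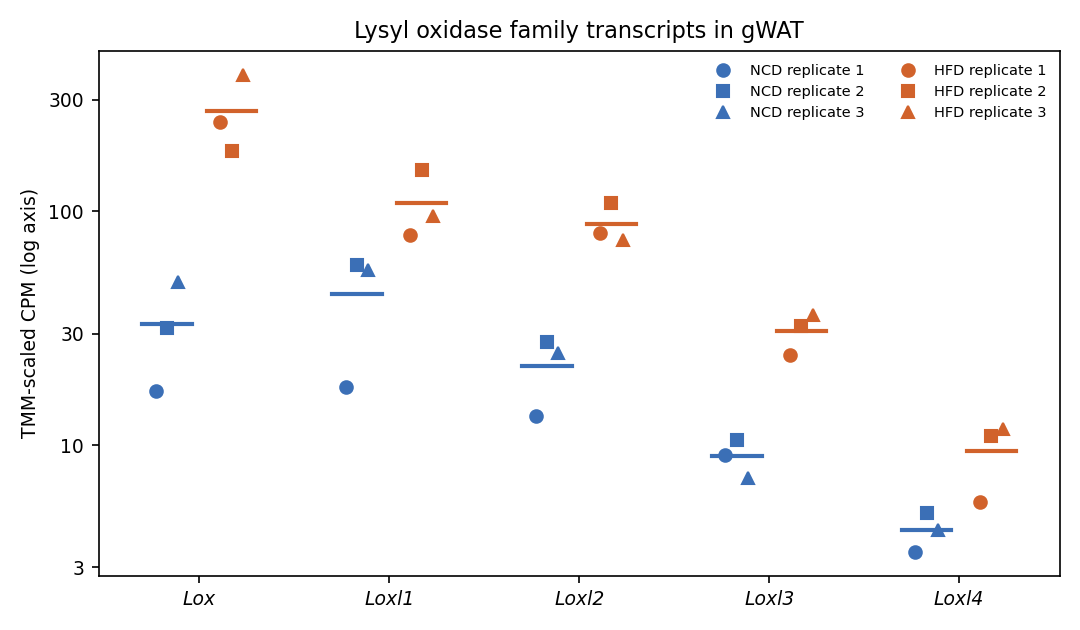
TMM-scaled CPM (log axis) of each lysyl oxidase gene, with 1 point per mouse and a line at the mean of each diet (n = 3). For every gene the 3 HFD points lie above the 3 NCD points, with the widest gap for Lox (lowest HFD mouse 3.63 times the highest NCD mouse) and the narrowest for Loxl4 (1.12 times).

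*Lox* (gene 16948, GRCm38 chr18:52516067-52529867, minus strand), which encodes the founding enzyme of the family and acts on fibrillar collagen and elastin, had the largest change of the 5. NCD replicates 1, 2 and 3 held 17.1, 31.7 and 49.9 CPM of it and HFD replicates 1, 2 and 3 held 241.6, 181.2 and 384.8 CPM. The lowest HFD mouse thus stood at 3.63 times the highest NCD mouse, and the mean went from 32.9 ± 16.5 to 269 ± 105 CPM (SD, n = 3 each). The log2 fold change was 3.03 (SE 0.492), 8.18-fold, with an adjusted p of 0.0263 by edgeR, and 1.54% of the genes tested had a larger rise. It was 2.74 without NCD replicate 1 (SE 0.415, adjusted p = 0.0126 by edgeR).

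*Loxl2* (gene 94352, chr14:69609068-69695834, plus strand), whose product cross-links collagen IV of basement membranes as well as fibrillar collagen, was the next largest. It measured 13.4, 27.6 and 24.7 CPM on NCD and 80.9, 108.2 and 75.7 CPM on HFD in replicates 1, 2 and 3, and the HFD mice differed among themselves less than for *Lox*. The mean went from 21.9 ± 7.49 to 88.3 ± 17.4 CPM (SD, n = 3 each), a log2 fold change of 2.01 (SE 0.314, adjusted p = 0.0253 by edgeR). The log2 fold change was 1.77 without NCD replicate 1 (SE 0.193, adjusted p = 0.00686 by edgeR).

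*Loxl3* (gene 16950, chr6:83034173-83052562, plus strand), a collagen and elastin cross-linking enzyme known for its part in the development of the palate and spine, was a low transcript with a tight spread. The NCD mice held 9.10, 10.5 and 7.24 CPM and the HFD mice 24.2, 32.3 and 36.2 CPM in replicates 1, 2 and 3, with means of 8.95 ± 1.64 and 30.9 ± 6.16 CPM (SD, n = 3 each). It was the member in which NCD replicate 1 lay between the other NCD mice, and its log2 fold change was close with and without that mouse, at 1.79 (SE 0.233, adjusted p = 0.0219 by edgeR) and 1.82 (SE 0.26, adjusted p = 0.011 by edgeR).

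These calls rested on all of the other mice. Leaving out NCD replicate 2 or 3, or HFD replicate 1, 2 or 3, kept the 3 log2 fold changes between 1.67 and 3.48, but the adjusted p by edgeR rose to between 0.0682 and 0.104 for *Lox*, 0.067 and 0.1 for *Loxl2* and 0.0548 and 0.0971 for *Loxl3*. In the same 5 fits the number of genes called among all genes fell from 1139 to between 2 and 7.

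*Loxl1* (gene 16949, chr9:58287738-58313186, minus strand), whose product is needed for the upkeep of elastic fibres, did not pass the test. In NCD replicates 1, 2 and 3 its level was 17.8, 59.1 and 56.0 CPM, and in HFD replicates 1, 2 and 3 it was 79.4, 150.2 and 95.6 CPM, so that HFD replicate 1 stood only 1.34 times above NCD replicate 2. The log2 fold change was 1.29 (SE 0.495, adjusted p = 0.148 by edgeR) with all mice and 0.93 (SE 0.287, adjusted p = 0.0725 by edgeR) without NCD replicate 1, the mouse that carried much of the spread on NCD.

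*Loxl4* (gene 67573, chr19:42593982-42612813, minus strand), a collagen cross-linking member with scavenger receptor domains, was the lowest transcript and did not pass the test either. NCD replicates 1, 2 and 3 held 3.50, 5.13 and 4.34 CPM of it and HFD replicates 1, 2 and 3 held 5.74, 10.9 and 11.7 CPM. HFD replicate 1 lay close to the NCD mice. The log2 fold change was 1.12 (SE 0.339, adjusted p = 0.0917 by edgeR), or 1.01 (SE 0.352, adjusted p = 0.095 by edgeR) without NCD replicate 1. The smallest count of any member was 115, for *Loxl4* in NCD replicate 1, with an exact Poisson 95% interval of 94.9 to 138.0 that covers counting error only. For *Loxl4* and *Loxl1*, as for the other members, the exact permutation test of 3 mice against 3 gave its smallest possible two-sided p, 0.1.

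**Figure D2:**
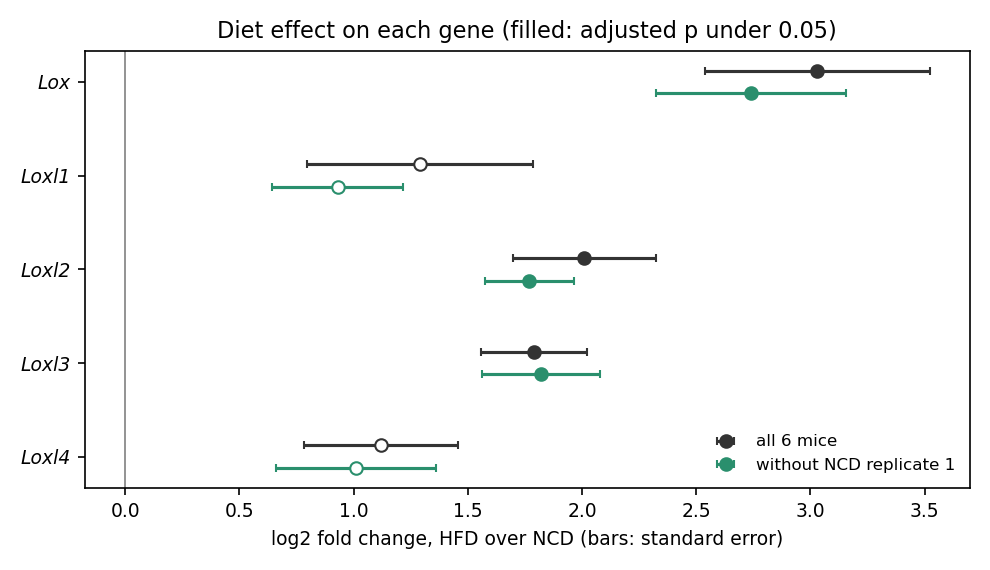
Log2 fold change of HFD over NCD for each gene from edgeR, with bars of 1 standard error, for all 6 mice (black) and without NCD replicate 1 (green). Filled points have an adjusted p under 0.05, namely Lox, Loxl2 and Loxl3 in both fits, and the order by size differs between the fits for Loxl2 and Loxl3 (2.01 and 1.79 with all mice, 1.77 and 1.82 without) and for Loxl1 and Loxl4 (1.29 and 1.12, then 0.93 and 1.01).

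Some exons of the family overlap other genes. The exons of *Loxl3* share 535 bases with those of *Htra2*, a mitochondrial protease gene on the opposite strand, and the sources used here do not state whether reads were counted by strand. NCD replicates 1, 2 and 3 held 46.4, 26.0 and 26.7 CPM of *Htra2* and HFD replicates 1, 2 and 3 held 45.5, 41.4 and 49.8 CPM, a log2 fold change of 0.46 (SE 0.259, adjusted p = 0.281 by edgeR), or 0.80 (adjusted p = 0.0135 by edgeR) without NCD replicate 1. *Loxl2* shares 301 exonic bases with an antisense transcript and *Lox* 30, and the part of overlapping reads in these counts was not tested.

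Per length, *Loxl1* was the leading member on NCD and *Lox* came up to it or passed it on HFD. Levels of different genes were compared as FPKM, counts divided by exon length and by the total of the library, with exon lengths from 3297 bases for *Loxl1* to 5405 for *Loxl2*. In NCD replicates 1, 2 and 3, *Loxl1* stood at 2.68, 18.3 and 18.2 FPKM and *Lox* at 1.77, 6.77 and 11.2 FPKM. In HFD replicates 1, 2 and 3, *Loxl1* stood at 27.9, 57.3 and 36.7 FPKM and *Lox* at 58.5, 47.7 and 102 FPKM. The order *Loxl1*, *Lox*, *Loxl2*, *Loxl3*, *Loxl4* held in all 3 NCD mice and in HFD replicate 2, and in HFD replicates 1 and 3 *Lox* came first. The ranges of *Lox* and *Loxl1* overlapped on both diets, on NCD only because of NCD replicate 1. The FPKM of that mouse are divided by a total that includes its seminal vesicle counts. *Loxl4* lay below *Loxl3* in each mouse, at 0.464 to 1.40 against 1.10 to 2.62 FPKM on NCD and 1.77 to 3.94 against 6.82 to 11.2 FPKM on HFD.

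The same shift was seen as a share of the family's summed FPKM. *Lox* made up 24.4%, 19.7% and 29.9% in NCD replicates 1, 2 and 3 and 52.1%, 33.2% and 59.4% in HFD replicates 1, 2 and 3, and the diets did not overlap. *Loxl1* made up 46.3% ± 8.41 on NCD and 28.7% ± 9.82 on HFD, with HFD replicate 2 at 39.9%, above the 37.0% of NCD replicate 1. *Loxl2* held 15.1% ± 1.94 and 14.4% ± 3.69, *Loxl3* 9.3% ± 5.27 and 6.5% ± 0.412, and *Loxl4* 4.6% ± 1.61 and 2.14% ± 0.503 (SD, n = 3 each).

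**Figure D3:**
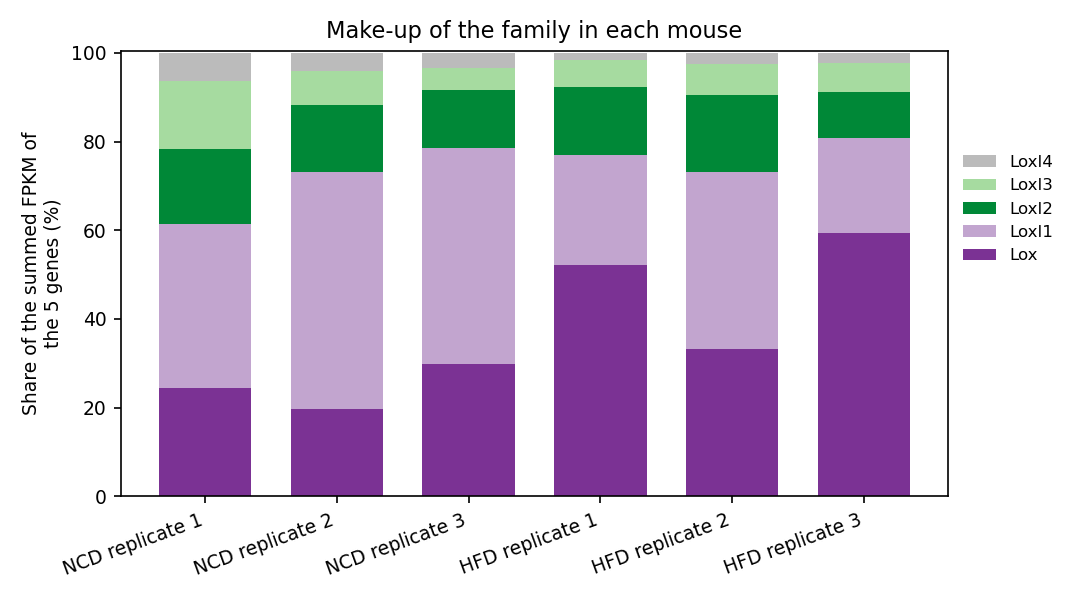
Share of the summed FPKM of the 5 genes (%) taken by each gene, with 1 stacked bar per mouse. Lox fills between 19.7% and 29.9% of the NCD bars and between 33.2% and 59.4% of the HFD bars, and Loxl4 at the top falls from at least 3.32% to at most 2.55%.

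The ratios of the members within a mouse, which do not depend on the scaling between libraries, were compared by exact two-sided permutation tests that cannot go below p = 0.1, so that none of the 20 ratios computed, here and against other genes, could pass a threshold of 0.05. A raw p of 0.1 was 0.182 after Benjamini-Hochberg adjustment of these permutation tests over the 20 ratios. *Lox* over *Loxl1* was 0.659, 0.37 and 0.615 in NCD replicates 1, 2 and 3 and 2.1, 0.833 and 2.78 in HFD replicates 1, 2 and 3, a difference of 1.67 on the log2 scale (exact permutation p = 0.1), or 1.83 without NCD replicate 1. *Loxl4* over *Loxl3* went the other way without overlap, from 0.421, 0.536 and 0.656 to 0.26, 0.37 and 0.352 (log2 difference −0.71, exact permutation p = 0.1). The ratios *Lox* over *Loxl2*, *Loxl2* over *Loxl1* and *Loxl3* over *Loxl2* overlapped between the diets, with exact permutation p of 0.2, 0.2 and 0.7, and the log2 difference of the last was −0.28 with all mice and 0.06 without NCD replicate 1.

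The family was next set against the substrates it oxidises and against the stroma. *Col1a1*, the main chain of type I collagen, rose from 123.0 ± 17.6 to 531.1 ± 58.1 CPM (SD, n = 3 each). The FPKM ratio of *Loxl2* to *Col1a1* was 0.12, 0.215 and 0.256 in NCD replicates 1, 2 and 3 and 0.176, 0.199 and 0.169 in HFD replicates 1, 2 and 3, with a log2 difference of −0.05 (exact permutation p = 0.9). NCD replicate 1 was the only NCD mouse below the HFD mice, and without it all HFD mice lay below NCD replicates 2 and 3 and the log2 difference was −0.37. *Lox* over *Col1a1* overlapped as well, since NCD replicate 3 at 0.585 was above HFD replicate 2 at 0.376 (log2 difference 0.98, 0.57 without NCD replicate 1), and *Loxl1* over *Col1a1* overlapped with a log2 difference of −0.69, or −1.25 without NCD replicate 1. Against *Col3a1*, the chain of type III collagen, *Lox* and *Loxl2* were higher in all HFD mice than in any NCD mouse, the latter by little, from 0.0376, 0.0294 and 0.0294 to 0.0385, 0.0383 and 0.0433 in replicates 1, 2 and 3 (log2 differences 1.36 and 0.33, exact permutation p = 0.1 each).

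Against *Eln*, the gene of elastin, and *Pdgfra*, a receptor gene that marks fibroblasts and their progenitors, *Lox* and *Loxl2* were higher in all HFD mice. *Lox* over *Eln* went from 0.411, 0.451 and 0.89 to 2.15, 1.35 and 2.98 in replicates 1, 2 and 3 (log2 difference 1.90, 1.70 without NCD replicate 1). *Lox* over *Pdgfra* went from 0.701, 1.13 and 2.43 to 7.79, 3.74 and 9.21 (log2 difference 2.38, 1.96 without NCD replicate 1). For *Loxl2* the log2 differences were 0.87 against *Eln* and 1.34 against *Pdgfra* (0.75 and 1.01 without NCD replicate 1), and all 4 had an exact permutation p of 0.1. *Loxl1* overlapped between the diets against both, with log2 differences of 0.23 and 0.70, which were −0.13 and 0.13 without NCD replicate 1. Against *Adipoq*, the adipocyte hormone gene of adiponectin, the diets did not overlap for any of the 3, with log2 differences of 2.98 for *Lox*, 1.31 for *Loxl1* and 1.95 for *Loxl2* (exact permutation p = 0.1 each).

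**Figure D4:**
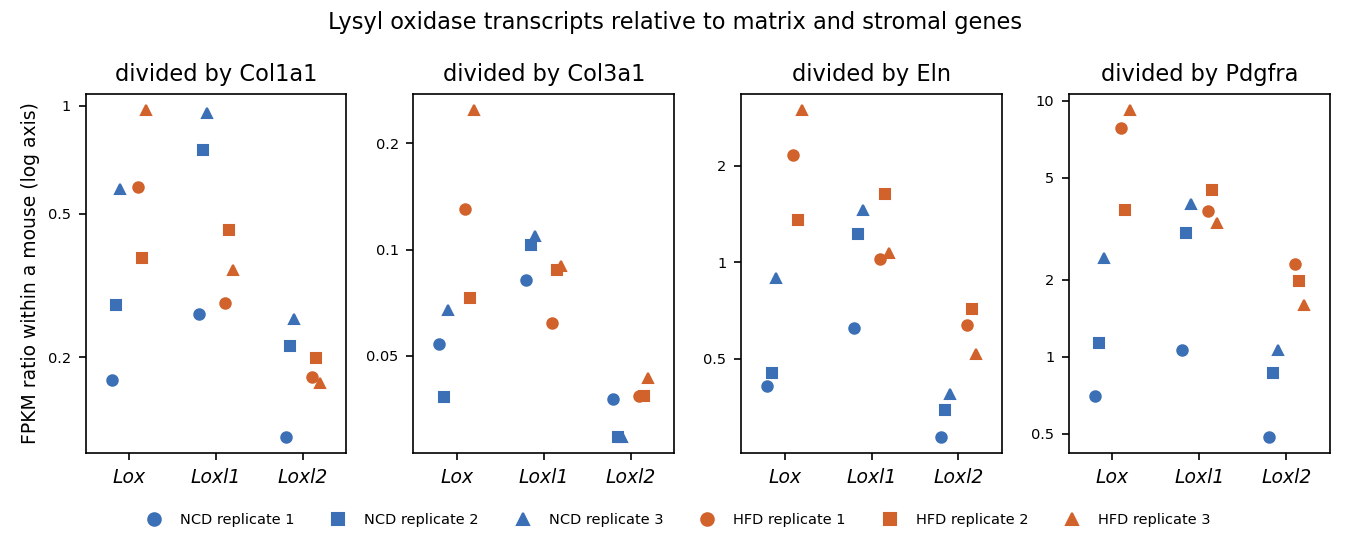
FPKM of Lox, Loxl1 and Loxl2 divided within each mouse by that of Col1a1, Col3a1, Eln or Pdgfra (log axes), with 1 point per mouse. Against Eln and Pdgfra the HFD mice stand above the NCD mice for Lox and Loxl2, whereas against Col1a1 the HFD mice of Loxl2 (0.169 to 0.199) lie above NCD replicate 1 (0.12) and below NCD replicates 2 and 3 (0.215 and 0.256).

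The genes that work with the family were taken by role. Of 11 chains of cross-linked substrates, 9 could be tested and 3 rose, *Col1a1* (log2 fold change 2.11, adjusted p = 0.0194 by edgeR), *Col1a2*, the partner chain of type I collagen (1.52, adjusted p = 0.0398), and *Eln* (1.16, adjusted p = 0.0367), while *Col2a1* and *Col11a1* had too few counts. Over all genes tested, 5.58% were called higher. The median log2 fold change of the 9 was 1.16, beside −0.08 over all genes tested. Without NCD replicate 1, 5 rose, beside 10.7% of all genes called higher. *Col3a1* (1.34, adjusted p = 0.0304 by edgeR) and *Col5a2* were the additional ones.

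Of 20 genes that activate the proenzymes or hold the enzymes at their substrates, 19 could be tested. Of these, 7 rose and none fell, beside 5.58% of all genes called higher and 1.90% called lower. Their median log2 fold change was 1.22. The largest were *Thbs1*, encoding thrombospondin-1, a matrix glycoprotein (29.7 ± 7.01 to 584 ± 214.1 CPM, SD, n = 3 each, log2 fold change 4.30), *Fbn1*, encoding the microfibril protein fibrillin-1 (2.16), and *Postn*, encoding periostin, which helps to bring BMP1 to the *Lox* proenzyme (2.03), with adjusted p of 0.0192, 0.0240 and 0.0362 by edgeR. The other 4 were *Bmp1* and *Tll1*, the proteinases that remove propeptides, *Fbln5*, a scaffold of elastic fibres, and *Emilin1*, with log2 fold changes of 1.40 to 1.79. When NCD replicate 1 was left out, 10 of the 20 rose, beside 10.7% of all genes called higher.

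Lysyl hydroxylases modify the lysines on which collagen cross-links form. Of 8 such enzymes and their partners, 4 rose and 1 fell, beside 5.58% of all genes called higher and 1.90% called lower. *Fkbp10*, a chaperone that acts with *Plod2*, rose by 1.66, *Plod2*, the hydroxylase of collagen telopeptides, by 1.50 and *Plod1* by 1.36 on the log2 scale (adjusted p of 0.0282, 0.0289 and 0.0447 by edgeR), as did *Colgalt1*, a galactosyltransferase of collagen hydroxylysine (1.24). Its homologue *Colgalt2* went from 3.99 ± 1.02 to 0.954 ± 0.226 CPM (SD, n = 3 each, log2 fold change −2.07, adjusted p = 0.0289 by edgeR). *Plod3* joined the risen genes when NCD replicate 1 was left out, in a fit that called 10.7% of all genes higher.

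No gene of copper supply or of the other amine oxidases passed the test with all mice. Among 11 copper genes edgeR called none, with 1 higher and 1 lower at an unadjusted p under 0.05 (16.0% and 13.7% of all genes tested), 1 called higher by DESeq2, 2 called each way by limma voom, and a median log2 fold change of −0.03. The highest mean CPM over the 6 mice were those of *Steap4*, a metalloreductase (528.1 CPM on NCD and 516.6 on HFD, log2 fold change −0.03), and *Slc31a2*, a copper transporter gene at 247.2 CPM in NCD replicate 1 and between 27.6 and 40.9 CPM in the other 5 mice, so that its place rests on NCD replicate 1. *Atp7a*, the pump that loads copper onto secreted enzymes, had a log2 fold change of 0.26 with all mice and 0.87 (adjusted p = 0.0219 by edgeR) without NCD replicate 1. The highest open point of that list in the plot of the lists, named here after its value was seen, is *Atp7b*, with 0, 0 and 4 counts in NCD replicates 1, 2 and 3 and 18, 60 and 48 in HFD replicates 1, 2 and 3 (adjusted p = 0.0667 by edgeR).

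Of 7 other amine oxidase genes none passed edgeR's test, with 2 lower at an unadjusted p under 0.05 (13.7% of all genes), 1 called lower by DESeq2, and 1 higher and 3 lower by limma voom. *Aoc3*, the copper amine oxidase of adipocyte and endothelial surfaces, stood at 1053.2 ± 637.8 CPM on NCD and 818.1 ± 295.2 on HFD, and *Maob*, a mitochondrial monoamine oxidase, at 79.9 ± 53.8 and 28.3 ± 6.88 CPM (SD, n = 3 each). Without NCD replicate 1, *Maob* (log2 fold change −1.92, adjusted p = 0.0109 by edgeR) and *Paox* fell, beside 1569 of 15510 genes called lower.

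The 18 genes of hypoxia and TGF-beta signalling, pathways known to induce lysyl oxidases, had a median log2 fold change of −0.14, beside −0.08 over all genes tested. *Hif1a*, the inducible subunit of the hypoxia factor, had a log2 fold change of 0.13 (adjusted p = 0.745 by edgeR). *Tgfb1*, encoding the growth factor itself, had a log2 fold change of 1.60 (adjusted p = 0.0535 by edgeR) and passed the test without NCD replicate 1, as did the receptor gene *Tgfbr2*. Transcripts do not show the hypoxia factor's protein, which is controlled largely by its breakdown.

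**Figure D5:**
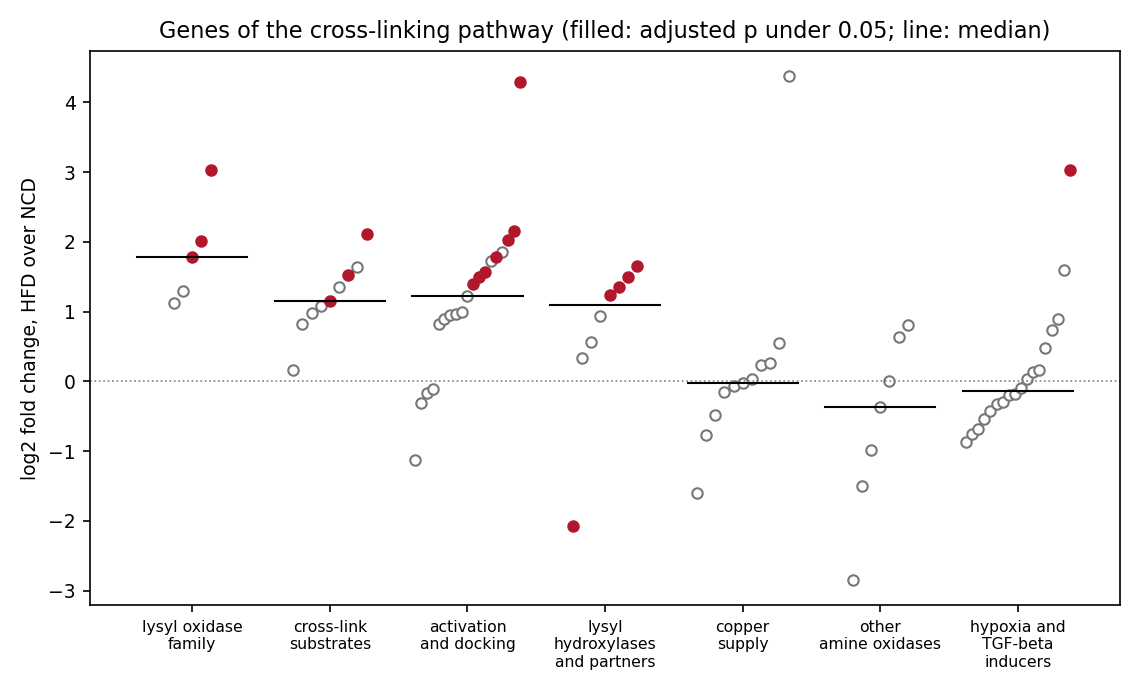
Log2 fold change of HFD over NCD from edgeR for every tested gene of the family and of 6 lists of related genes, with a line at the median of each. Filled points have an adjusted p under 0.05, and the median is 1.79 for the family, between 1.09 and 1.22 for substrates, activation and docking genes and lysyl hydroxylases, and between −0.36 and −0.03 for the other lists.

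In whole tissue a change of cell makeup and a change of RNA per cell cannot be told apart, so cell type markers are given beside the family. The 10 stromal progenitor markers summed to 1033.2 to 1602.8 CPM on NCD and 1351.9 to 1920.7 CPM on HFD, which overlapped. None passed edgeR's test, with 4 higher at an unadjusted p under 0.05 (16.0% of all genes). DESeq2 called 3 higher (14.1% of all genes) and limma voom 4 (18.5%). The 10 macrophage markers summed to 742.3 to 973.0 CPM on NCD and 2280.6 to 3856.0 CPM on HFD. Of these 10, 4 were called higher (5.58% of all genes), or 8 without NCD replicate 1 (10.7% of all genes). The 6 mesothelial markers that could be tested summed to 112.4 to 364.1 CPM and 198.2 to 595.2 CPM, with only *Msln* called higher (5.58% of all genes). The 8 endothelial markers summed to 289.7, 810.7 and 910.5 CPM in the NCD mice. In the HFD mice they summed to 1177, 967.2 and 957.7 CPM, and none passed edgeR's test. At an unadjusted p under 0.05 by edgeR, 1 was higher (16.0% of all genes). DESeq2 called 1 higher (14.1% of all genes) and limma voom 2 (18.5%). Without NCD replicate 1, edgeR called 2 higher (10.7% of all genes). Of the 10 adipocyte markers none passed edgeR's test with all mice. At an unadjusted p under 0.05 by edgeR, 1 was lower (13.7% of all genes). DESeq2 called 1 lower and limma voom 4, among 3904 and 5570 of 15241 genes called either way. Without NCD replicate 1, 5 fell, beside 1569 of 15510 genes called lower. The macrophage and endothelial sums, like that of the family, were thus higher in every HFD mouse than in any NCD mouse. Among the HFD mice the order differed. HFD replicate 1 had the lowest sum of the family (431.8 CPM) and the highest macrophage and endothelial sums (3856.0 and 1177 CPM). The part of these cell types in the levels of the family was not tested.

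Markers of neighbouring tissue were highest in NCD replicate 1. The 8 smooth muscle markers summed to 465.1 to 7350.4 CPM on NCD and 376.0 to 473.6 CPM on HFD, and the 12 epithelial markers to 49.9 to 2013.5 CPM and 29.2 to 120.0 CPM, and *Cldn7* and *Elf3* had no count in any HFD mouse. The sum of the lysyl oxidase family was 60.9 CPM in NCD replicate 1 and 134.0 and 142.2 CPM in NCD replicates 2 and 3. It was 431.8 to 603.9 CPM on HFD. Without NCD replicate 1 the log2 fold changes of the 5 genes were 0.93 to 2.74, as given above. The part of the neighbouring tissue in these levels, also of what remained in NCD replicates 2 and 3, was not tested.

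All 5 members were higher in every HFD mouse than in any NCD mouse, but their profiles over the 6 mice were not equal. Likeness was measured as the root mean square difference of log2 CPM, each gene centred on its mean of the 6 mice, so that 0 is an equal profile, over 13594 genes with a mean of at least 1 CPM. Among the members, *Loxl1* and *Loxl2* were the closest pair, at 0.428, followed by *Loxl3* and *Loxl4* at 0.43 and *Loxl2* and *Loxl3* at 0.446. *Lox* was far from *Loxl1* and *Loxl4*, at 1.02 and 1.15. Many genes outside the family lay nearer, as *Loxl2* ranked 269 from *Loxl1* and *Loxl4* ranked 392 from *Loxl3*. The measure leaves out the level of each gene and compares how it varied over the mice. It is not scaled, so a difference in the size of the diet effect also counts as distance. The log2 fold change was 3.03 for *Lox* and 1.12 for *Loxl4*. The genes nearest to *Lox* were *Treml4* (0.237), *Gpr176* (0.247) and *E230016K23Rik* (0.278), and those nearest to *Loxl1* were *Nog*, *Cfb* and *Tppp3* (0.161 to 0.178). *Loxl2* lay closest to *Mexis*, *Sbsn* and *Emp3* (0.18 to 0.202), *Loxl3* to *Runx1*, *Sh3bp1* and *Cmtm7* (0.0857 to 0.108), and *Loxl4* to *Septin3*, *Tlr5* and *Ak1* (0.105 to 0.127). Some of these genes had few counts on NCD. In NCD replicates 1, 2 and 3, *Treml4* had 5, 24 and 22, *E230016K23Rik* 8, 39 and 39, and *Mexis* 14, 51 and 45.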

How the data were processed

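RNA of 6 mice was sequenced from libraries of a stranded mRNA kit. What the authors deposited are whole-number, unnormalized counts per gene with a column for each mouse. The submitters' processing notes name bcl2fastq 2.20.0, Trimmomatic, HISAT2 2.1.0, StringTie 1.3.4d and DESeq2 and the builds mm10 and GRCm38, without roles. Whether counting used strand is not given in the sources. All columns were matched to a sample (0 left over), and 19742 of 19790 identifiers to a symbol.

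Genes were filtered by filterByExpr (minimum count 10, total 15), libraries were TMM-scaled, and glmQLFit and glmQLFTest of edgeR 4.0.16 were run in R 4.3.3. P-values were adjusted by the Benjamini-Hochberg method over the 15241 genes kept, at a threshold of 0.05. The common biological coefficient of variation was 0.424. Standard errors are the log2 fold change over the root of F. FPKM was computed here from the deposited counts and the union of GENCODE vM21 exons, known for 17794 genes. The remaining genes made up 1.05% of the counts. All pairs of replicates differed beyond sampling noise. DESeq2 1.42.0 and limma 3.58.1 were alternatives, and ratios were compared by exact permutation. The edgeR p-values set the diet difference against the variation between these mice, which is estimated in part across all genes. Positions are 1-based on GRCm38. Plots were made in Python 3.11.15 with matplotlib 3.10.9.

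The members, lists, tests and alternatives were chosen with earlier results of these data known. Named genes are the 5 members, in each list the 3 largest rises and 3 largest falls past the threshold (in lists with none, the 2 most abundant genes), and the 3 genes most like each member. Other genes of the lists are named where a count or a role called for it, after their values were seen. A result that the naming rule would give is not reported here.

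Data were simulated with the gene number and group sizes of this comparison (15241 genes, 3 against 3). Of 65 genes changed 2-fold, 70 changed 4-fold and 65 changed 8-fold, edgeR recovered 6.15%, 70.0% and 86.2%, with 8.4% of its calls false. All simulated libraries came from the same mean profile, without the admixture particular to NCD replicate 1. Fewer genes were changed than the 1139 called in the data, so the rates may differ there.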

Additional observations from a re-analysis of the deposited data

How the results depend on the processing

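All 5 lysyl oxidase genes were higher on HFD under each of the 15 alternatives run, with log2 fold changes of 2.70 to 3.48 for Lox, 0.93 to 1.64 for Loxl1, 1.77 to 2.41 for Loxl2, 1.67 to 2.31 for Loxl3 and 0.95 to 1.59 for Loxl4. Which of them passed the threshold depended on the tool and on single mice, and the cause was not tested. With limma voom and sample quality weights all 5 did, Loxl1 at 1.12 and Loxl4 at 1.05 being added. This tool also called 5 cross-link substrates and 14 activation and docking genes, all higher. It called 8 lysyl hydroxylases and partners (7 higher, 1 lower) and 4 copper genes (2 each way). Also called were 4 amine oxidases (1 higher, 3 lower) and 4 hypoxia and TGF-beta genes (3 higher, 1 lower). Of all genes, 5570 were called either way, and 18.5% of all genes were called higher. DESeq2 added Loxl4 (1.12) and called 5, 12, 1 and 3 genes of the substrate, activation, copper and hypoxia lists, all higher. It called 1 amine oxidase lower. It called 3904 of all genes either way, and 14.1% of all genes higher. Total counts without further scaling gave a median over all genes of 0.45, not −0.08, and called 1 substrate and 2 hydroxylase genes. No filter on low counts, upper-quartile scaling and robust edgeR each left 0 hypoxia and TGF-beta genes.

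Leaving out 1 mouse at a time gave 2.695 to 3.480 for Lox, 1.770 to 2.209 for Loxl2 and 1.671 to 1.947 for Loxl3. Between 0 and 3 lysyl oxidase genes were then called (3 without NCD replicate 1, 0 without any other mouse, where 3 to 5 had an unadjusted p under 0.05 by edgeR, as did 12.2% to 14.1% of all genes in the same direction), 0 to 5 substrates, 0 to 10 activation genes, 0 to 6 hydroxylase genes, 0 to 1 copper genes, 0 to 2 amine oxidases, 0 to 3 hypoxia and TGF-beta genes and 2 to 3234 of all genes. The log2 fold change of Steap4 was −0.439 to 0.607, that of Slc31a2 −2.027 to 0.033 and that of Aoc3 −0.777 to 0.036, and with total counts Steap4 stood at 0.287.

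Replicate numbers in the sample titles are shared by the diets, although the deposited column of HFD replicate 3 carries another number. Same-numbered mice did not deviate together (correlations of −0.0478, −0.0193 and −0.0185 over 13595 genes). These correlations cannot show whether mice shared cages or days. With the replicate block, Lox, Loxl2 and Loxl3 stood at 3.09, 2.06 and 1.78 with an adjusted p of 0.0675 each by edgeR, Steap4 stood at 0.209, and 12 of all genes, 0 lysyl oxidase genes (5 at an unadjusted p under 0.05, beside 14.3% of all genes higher on HFD) and 0 substrate, activation, hydroxylase and hypoxia genes were called.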
